A study of Mus musculus with 6 samples.

Results

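The genes of the PI3K, AKT and mTOR pathway were compared between untreated mouse pro-B cells and cells treated briefly with tamoxifen to delete the transcription factor Foxo1. The 32 genes were chosen by name for their place in the pathway, from surface receptor to kinase substrate, with earlier results of these data known. Of these, 31 were measured among 19937 genes in all. The remaining one, Rps6kb1, had 0 probe sets paired with its symbol alone and was left out. Where a gene had more than 1 probe set, the brightest stood for it.

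All samples came from v-Abl transformed pro-B cells, cells that the Abelson viral oncogene keeps dividing as early B cell precursors. Every sample had the genotype Foxo1f/f; ERCre on a strain labelled C57/BL6: both Foxo1 alleles carried loxP sites, and the cells held ERCre, a recombinase joined to an oestrogen receptor domain that tamoxifen activates. The 3 untreated samples kept Foxo1, and the 3 tamoxifen samples had received 1 µM tamoxifen for 2 days. No group of tamoxifen-treated cells without the floxed alleles was analysed here, so loss of Foxo1 and tamoxifen or Cre activity cannot be told apart. The labels do not say that samples of a group were separate cultures, so p-values reflect only how much these particular samples vary, possibly for technical reasons, and 3 arrays a group limit the precision.

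The arrays had medians between 100.9 and 109.1 (deposited intensity). Foxo1 was at 646 ± 127 in untreated cells and 134 ± 15.3 in tamoxifen cells (normalised intensity, SD, n = 3), with limma's adjusted p at 0.0178. The level in tamoxifen cells was still above the median of probe set means, 106. Incomplete deletion, remaining transcript and array background cannot be told apart here. Of 14 markers of pro-B and pre-B cells, 13 were measured of which 11 lay above the median probe set (all but Rag1 and Rag2) and 10 above the upper quartile. Their summed deposited intensity ran from 18526 to 22277 in untreated and from 21616 to 22377 in tamoxifen samples. With limma 0 of the 13 were called, where 0.0853% of all genes were. At an unadjusted p under 0.05 there were 7, against 5.15% of all genes, in both directions. Below 0 were Dntt, at a log2 fold change of -1.26, and Ebf1 at -0.51. Above 0 were Vpreb1 at 0.19, Igll1 at 0.26, Cd79a at 0.32, Pax5 at 0.38 and Cd79b at 0.52. Their part in the members' values was not tested. In such bulk samples fewer cells of a type and less RNA per cell cannot be told apart. Among 24 measured markers of T, myeloid, erythroid, plasma, NK and stromal cells, 0 lay above the upper quartile of probe sets and 4 above the median (Cd3e, Epor, Col1a1 and Col1a2).

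In this pathway a growth factor or antigen receptor recruits phosphoinositide 3-kinase (PI3K), which makes the membrane lipid PIP3. PIP3 brings the kinases PDK1 and AKT to the membrane, and AKT relieves the TSC complex's brake on the GTPase RHEB, which activates the kinase mTOR in complex 1. AKT also phosphorylates FOXO factors and thereby keeps them out of the nucleus, so Foxo1 lies downstream of these genes, while FOXO factors in turn are known to act on transcription of several pathway genes. In B cell precursors the balance of PI3K and FOXO activity is known for its part in the switch between proliferation and light chain recombination.

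RefSeq promoter windows (assembly GRCm38.p6, from 250 bases before to 50 bases after each listed start site) were found for 27 of the 31 measured members, in 42 windows. They were searched on both strands for 1 forkhead motif, TGTTTAC, which reads GTAAACA on the other strand. It occurred in 3 members, Akt1, Mapkap1 and Pik3cg, and in 4.05% of the 27025 genes with a window. By window it occurred in 4 of 42, where the same site lay in both Mapkap1 windows, against 3.65% of all 32851. Members had more windows per gene than all genes did. Such a match is a description of letters, not of a bound site. The stretches with a match are shown because Foxo1 is a forkhead factor, and the stretch just upstream of Pik3r1 because that member had the lowest p-value. Capitals mark the motif, each sequence runs 5′ to 3′ on the gene's strand, and Pik3r1 had no match in either of its windows.
Akt1: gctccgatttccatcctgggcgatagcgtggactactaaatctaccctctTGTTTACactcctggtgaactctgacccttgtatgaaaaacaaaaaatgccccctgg
Mapkap1: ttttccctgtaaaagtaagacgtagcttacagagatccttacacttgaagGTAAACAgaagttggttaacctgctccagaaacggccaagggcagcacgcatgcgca
Pik3cg: tttttcctaaaGTAAACAaatgatcctcct
Pik3r1: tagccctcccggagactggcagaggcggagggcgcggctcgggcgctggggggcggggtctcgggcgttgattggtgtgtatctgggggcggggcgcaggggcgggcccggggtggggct

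The Akt1 stretch lies at chr12:112674989-112675095 on the minus strand, with the motif beginning 161 bases before the one of its listed starts that is further upstream, inside the body of Gm30150, a gene RefSeq lists as lncRNA. The Mapkap1 stretch lies at chr2:34406622-34406728 on the plus strand, with the motif 99 and 179 bases before its listed starts. The Pik3cg stretch lies at chr12:32208544-32208573 on the minus strand, between the gene's listed starts and 92 bases before the one further downstream. The Pik3r1 stretch is chr13:101768218-101768337 on the minus strand and ends at the upstream start.

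No measured member differed past the threshold between tamoxifen and untreated cells. In limma, with p-values adjusted by Benjamini-Hochberg over 34760 probe sets and called under 0.05, 0 of 31 members were called, where 0.0853% of all genes were. At an unadjusted p under 0.05 there was 1 member, Pik3r1, against 5.15% of all genes, and the lowest adjusted p of any member was 0.488. The count at an unadjusted p under 0.05 was 2 without untreated sample 2, with Pdpk1 added, and 2 without tamoxifen sample 3, with Gsk3b added. Differences below are log2 fold changes of tamoxifen over untreated cells on the log2(intensity + 16) scale, with their SE, and this scale understates differences of dim genes. They ran from -0.19 to 0.28, with 15 members positive and 16 negative and a median of 0.00, against -0.01 over all genes. The median size without sign was 0.07 for the members and 0.06 for all genes. As 17 of the 31 changed sign under at least 1 other setting, small differences have no settled direction.

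How large a difference the data leave room for is shown by the 95% intervals of the log2 fold changes. For 28 of the 31 members the whole interval lay between -0.5 and 0.5. The exceptions were the kinase subunit Pik3cd (-0.59 to 0.29), the lipid phosphatase Inpp4b (-0.46 to 0.60) and the mTOR subunit Mlst8 (-0.17 to 0.57). All intervals come from the fit without a replicate block, and none were computed with it. For these exceptions the unadjusted limma p was 0.44, 0.759 and 0.237, and with the block 0.103, 0.378 and 0.0259. For all 31 the interval lay between -1 and 1, so a 2-fold difference was outside every member's interval. Like the p-values, the intervals reflect only how much these particular samples vary, possibly for technical reasons.

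**Figure D1:**
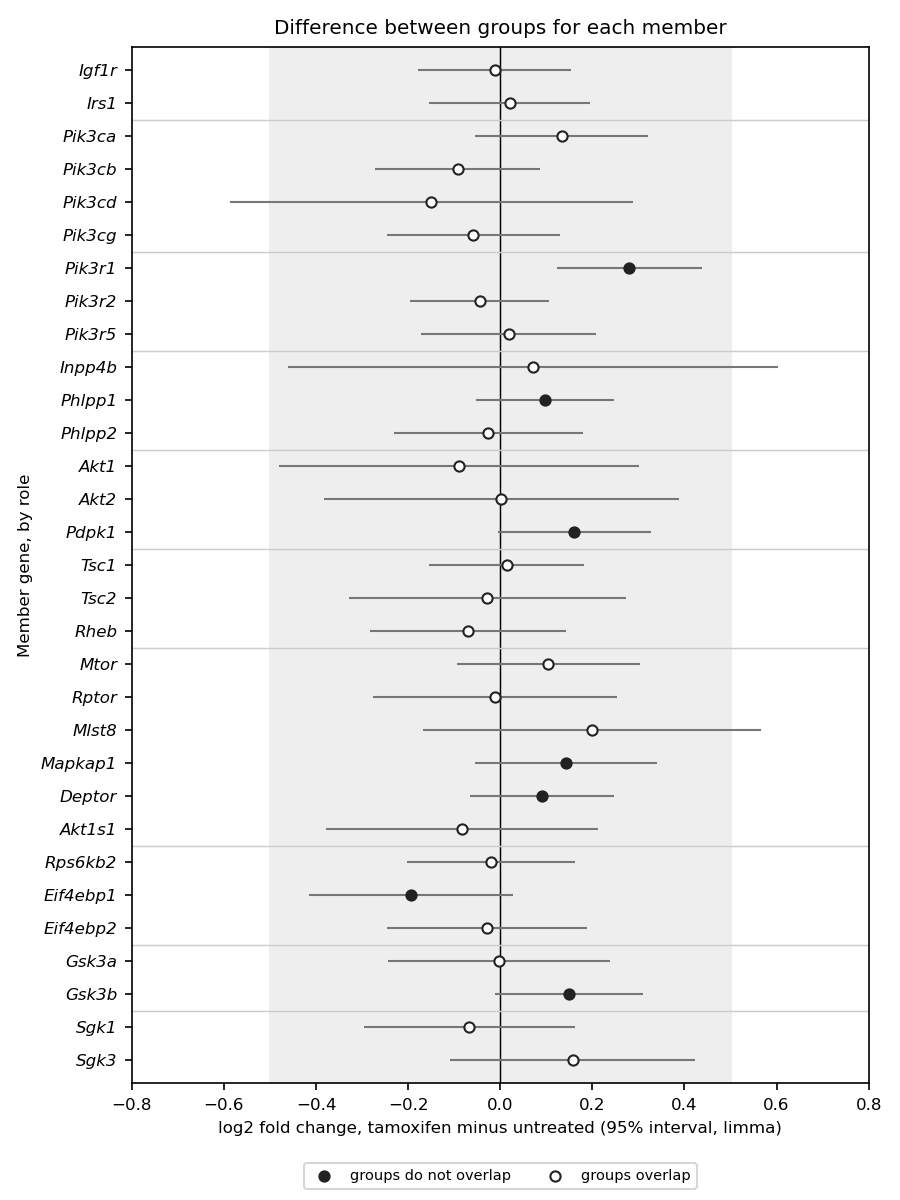
Log2 fold change of tamoxifen over untreated cells (x axis) for the 31 measured members (y axis, grouped by role), with bars for the 95% interval from limma and a grey band from -0.5 to 0.5. Filled points mark the 7 members whose groups did not overlap, and the interval of Pik3r1 (0.12 to 0.44) is the only one clear of 0.

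Both genes at the receptor end were dim, below the median probe set. Igf1r, the receptor for insulin-like growth factor, had normalised intensities between 50.0 and 58.4, and the tamoxifen samples held both the lowest and the highest value. Irs1, an adaptor that links insulin and IGF receptors to PI3K, was at 60.4, 51.7 and 56.1 in untreated samples 1, 2 and 3 against 60.6, 53.8 and 56.7 in tamoxifen samples 1, 2 and 3, the order kept for every gene here. Its groups overlapped almost fully. The log2 fold changes were -0.01 ± 0.07 for Igf1r and 0.02 ± 0.07 for Irs1, and a second probe set of Irs1 gave -0.06 ± 0.12.

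The 4 catalytic subunits of PI3K carry the lipid kinase activity, with Pik3cd and Pik3cg the forms enriched in leukocytes. Pik3ca measured 919, 1033 and 1060 in untreated against 1048, 1149 and 1109 in tamoxifen samples, where untreated 1 was lowest and tamoxifen 1 lay among the untreated values. Its log2 fold change was 0.13 ± 0.08, and on the deposited intensities its groups did not overlap. Pik3cd was at 671, 456 and 455 in untreated samples against 555, 408 and 446 in tamoxifen samples. Sample 1 was the highest of each group, and the spread between samples (SD 125 and 76.5) exceeded the difference of the means (527 and 469), with a log2 fold change of -0.15 ± 0.18. Without untreated sample 1 the difference of Pik3cd was 0.03, without tamoxifen sample 1 it was -0.27, and without both it was -0.09. Pik3cg measured -0.06 ± 0.08. Pik3cb, whose probe set was below the lower quartile of all, measured -0.09 ± 0.07.

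Among the regulatory subunits, Pik3r1 stood out by its p-value and the others did not. Pik3r1 encodes the p85 alpha subunit and shorter forms, which stabilise the catalytic subunit, hold it inactive at rest and bring it to phosphorylated receptors. Its normalised intensities were 797, 894 and 832 in untreated samples against 1014, 1021 and 1036 in tamoxifen samples. All tamoxifen values lay above all untreated values and within a narrow range, with means of 841 ± 49.3 and 1023 ± 11.1 (SD, n = 3). On the deposited intensities the groups were apart too, but the tamoxifen range was wider, at 1082, 999 and 1005. The log2 fold change was 0.28 ± 0.07, which is 1.21-fold, with a limma p of 0.00428 before and 0.488 after adjustment over all probe sets. It stayed between 0.24 and 0.32 under every alternative run, with limma's adjusted p between 0.216 and 1. The single probe set does not separate the long and short forms. Pik3r2, the p85 beta subunit, measured -0.05 ± 0.06, and Pik3r5, the regulatory partner of Pik3cg, measured 0.02 ± 0.08.

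**Figure D2:**
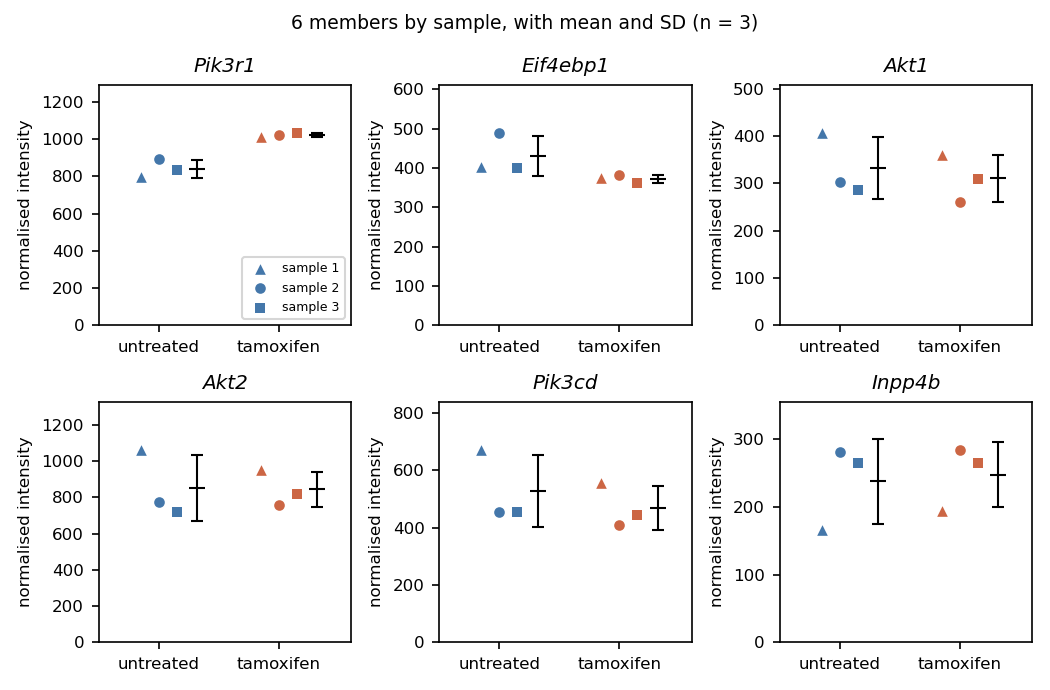
Normalised intensity (y axis, from 0) of 6 members in the untreated and tamoxifen samples, with sample 1 as a triangle, 2 as a circle and 3 as a square, and the mean with its SD (n = 3) in black. Pik3r1 and Eif4ebp1 have groups that do not overlap, whereas in Akt1, Akt2 and Pik3cd sample 1 is the highest of each group and in Inpp4b the lowest.

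The phosphatases work against the pathway. Inpp4b, which removes a phosphate from the lipid made downstream of PIP3, had the widest scatter of any member by its SE. It was at 166, 281 and 265 in untreated against 193, 284 and 264 in tamoxifen samples, so that sample 1 was low in each group and samples 2 and 3 were close together. Its log2 fold change was 0.07 ± 0.22. Without untreated sample 1 it was -0.15, without tamoxifen sample 1 it was 0.22, and without both it was 0.01. Phlpp1, a phosphatase of AKT's hydrophobic motif, measured 44.3, 46.7 and 45.3 in untreated against 49.7, 52.8 and 46.8 in tamoxifen samples. The groups did not overlap, but by a margin of 46.7 to 46.8 in a dim probe set, and the log2 fold change was 0.10 ± 0.06. Phlpp2, its relative, measured -0.03 ± 0.09.

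AKT kinases varied between samples of a group by more than between groups. Akt1 was at 407, 304 and 286 in untreated samples against 360, 261 and 310 in tamoxifen samples, with means of 332 ± 65.4 and 310 ± 49.5 (SD, n = 3). Sample 1 was the highest in each group, and the group ranges overlapped over most of their length. Akt2 showed the same order, with 1061, 772 and 719 in untreated against 950, 760 and 820 in tamoxifen samples. The log2 fold changes were -0.09 ± 0.16 for Akt1 and 0.00 ± 0.16 for Akt2, and the second probe set of Akt2 gave -0.02 ± 0.15. Without untreated sample 1, Akt1 measured 0.06, without tamoxifen sample 1 it measured -0.19, and without both it measured -0.05.

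Pdpk1, which encodes PDK1, the kinase that phosphorylates the activation loop of AKT, S6K and SGK, had groups that did not overlap. It measured 790, 881 and 838 in untreated against 982, 913 and 915 in tamoxifen samples. The log2 fold change was 0.16 ± 0.07, with a limma p of 0.0553 before and 0.988 after adjustment. On the deposited intensities its groups did overlap.

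The TSC complex and RHEB, the brake and the switch in front of mTOR, lay close to 0. Tsc1, the stabilising subunit, measured 0.01 ± 0.07, and Tsc2, the subunit that turns RHEB off, measured -0.03 ± 0.13. Rheb was at 1498, 1453 and 1378 in untreated samples against 1538, 1266 and 1328 in tamoxifen samples. Tamoxifen sample 1 was above every untreated sample and tamoxifen samples 2 and 3 were below them, giving a log2 fold change of -0.07 ± 0.09.

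Of the 6 mTOR complex members, 4 had positive and 2 negative log2 fold changes, and 0 had an unadjusted p under 0.05. Mtor, the shared kinase, was at 921, 792 and 804 in untreated against 857, 896 and 953 in tamoxifen samples. Untreated sample 1 lay among the tamoxifen values, and the log2 fold change was 0.10 ± 0.08. Mapkap1, which encodes the SIN1 subunit of complex 2, the complex that phosphorylates AKT's hydrophobic motif, measured 924, 927 and 875 in untreated against 1116, 945 and 961 in tamoxifen samples. These groups did not overlap after normalisation but did on the deposited intensities, and the log2 fold change was 0.14 ± 0.08 with a limma p of 0.128 before adjustment. Deptor, an inhibitor bound to both complexes, was dim, with 95.6, 96.8 and 94.2 in untreated against 111, 97.8 and 100.3 in tamoxifen samples. Its groups did not overlap, and most of the difference came from tamoxifen sample 1 (0.09 ± 0.07). Mlst8, a subunit of both complexes, measured 0.20 ± 0.15. Rptor, the substrate-binding subunit of complex 1, measured -0.01 ± 0.11, and Akt1s1, which encodes the complex 1 inhibitor PRAS40, measured -0.08 ± 0.12.

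The 3 measured substrates of mTOR complex 1 had log2 fold changes below 0. Eif4ebp1, which binds the cap-binding factor eIF4E and blocks translation until mTOR phosphorylates it, was at 402, 490 and 399 in untreated samples against 374, 381 and 362 in tamoxifen samples. Its groups did not overlap, with means of 430 ± 51.5 and 372 ± 9.84 (SD, n = 3), although untreated samples 1 and 3 were much nearer the tamoxifen values than untreated 2 was. The log2 fold change was -0.19 ± 0.09 with a limma p of 0.0758 before and 0.999 after adjustment, ran from -0.24 to -0.10 with 1 array left out, and on the deposited intensities the groups overlapped. Eif4ebp2, its paralog, was at 564, 515 and 538 in untreated against 475, 525 and 588 in tamoxifen samples. The tamoxifen samples spanned the whole untreated range, at -0.03 ± 0.09. Rps6kb2, an S6 kinase, measured -0.02 ± 0.08. The sign of Eif4ebp2 and Rps6kb2 changed under other scalings.

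The GSK3 kinases, which AKT inhibits, measured differently from each other. Gsk3b was at 587, 585 and 605 in untreated samples against 698, 661 and 619 in tamoxifen samples. Its groups did not overlap after normalisation (means 592 ± 10.8 and 660 ± 39.8, SD, n = 3) but did on the deposited intensities. The log2 fold change was 0.15 ± 0.07 with a limma p of 0.0629 before and 0.999 after adjustment. Gsk3a was at 1089, 857 and 918 in untreated against 988, 897 and 962 in tamoxifen samples, with sample 1 highest in each group, and its log2 fold change was 0.00 ± 0.10. The difference between the paralogs' responses was not tested.

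SGK kinases are relatives of AKT that PDK1 also activates. Sgk1 was dim, with 114, 104 and 90.2 in untreated against 106, 91.2 and 94.2 in tamoxifen samples, where sample 1 was again the highest of each group. Sgk3, which binds endosomal phosphoinositides, was at 431, 540 and 561 in untreated against 536, 601 and 567 in tamoxifen samples. Untreated sample 1 stood below the rest and the other values overlapped. The log2 fold changes were -0.07 ± 0.10 for Sgk1 and 0.16 ± 0.11 for Sgk3.

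**Figure D3:**
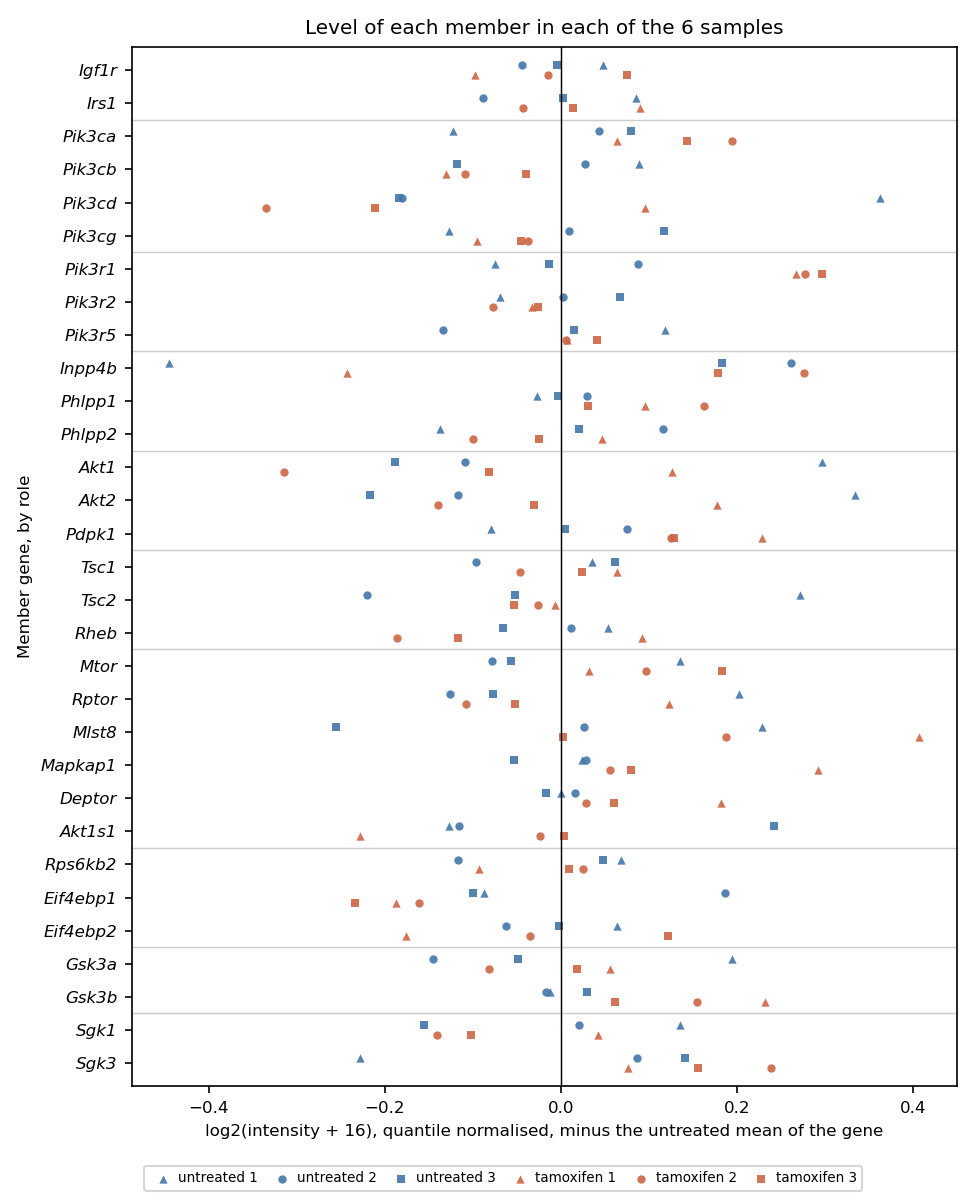
Each member (y axis, by role) in each sample, as log2(intensity + 16) after quantile normalisation minus the gene's untreated mean (x axis), with untreated samples in blue, tamoxifen samples in orange and sample numbers as symbols. Only Pik3r1 shows its 3 tamoxifen points together and well to the right of its untreated points, whereas triangles lie furthest right in both groups for Akt1, Akt2, Pik3cd, Rptor and Gsk3a.

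Across the members, 7 of 31 had groups that did not overlap, against 11.2% of all genes. In 6 of them, Pik3r1, Phlpp1, Pdpk1, Mapkap1, Deptor and Gsk3b, the tamoxifen values were the higher ones, and in Eif4ebp1 the lower. On the deposited intensities the count was 4 of 31, against 9.29% of all genes, namely Pik3ca, Pik3r1, Phlpp1 and Deptor. Pik3r1, Phlpp1 and Deptor were therefore the members without overlap on both scales, and Phlpp1 and Deptor are dim.

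A second pattern ran across the groups and not between them, and it was not particular to the members. In 10 of 31 members sample 1 was the highest of its group in both groups, against 22.0% of all genes. These were Irs1, Pik3cd, Akt1, Akt2, Tsc2, Rheb, Rptor, Mlst8, Gsk3a and Sgk1. In 6 members, Pik3ca, Pik3cg, Pik3r1, Inpp4b, Akt1s1 and Sgk3, sample 1 was the lowest in both groups, against 13.0% of all genes. Without both samples numbered 1, limma called 0 members, 2 had an unadjusted p under 0.05 (Pik3r1 at 0.25 and Mtor at 0.21), and the members' median log2 fold change was 0.05. The part of a shared factor of these samples in the results was not tested.

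Other genes of the pathway were counted from 3 lists of 76 genes, of which 71 were measured. These lists too were chosen with earlier results of these data known. With limma 0 of 71 passed the threshold over all probe sets, where 0.0853% of all genes did, and 11 had an unadjusted p under 0.05, 8 with positive and 3 with negative log2 fold changes, against 5.15% of all genes. The median log2 fold change was 0.02, against -0.01 over all genes. By list the count at an unadjusted p under 0.05 was 7 of 19 for other PI3K inputs and lipid enzymes, 1 of 25 for amino acid sensing upstream of mTOR complex 1, and 3 of 27 for other AKT and mTOR partners and outputs.

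Among these genes the lowest p-values belonged to an mTOR inhibitor, a lipid phosphatase and a PI3K adaptor. Sesn3, a sestrin that restrains mTOR complex 1 and is a known FOXO target, was at 357, 364 and 331 in untreated against 685, 525 and 545 in tamoxifen samples. All its tamoxifen values were above all untreated ones, with a log2 fold change of 0.70 ± 0.11 and a limma adjusted p of 0.206. It passed in 1 alternative, in which probe sets were averaged by gene (limma adjusted p = 0.0398, range over all settings 0.0398 to 0.645). Sesn3 has 1 probe set, so its own values were unchanged there. That run was fitted to and adjusted over 19937 genes in place of all probe sets. Inppl1, the lipid phosphatase SHIP2, was at 860, 850 and 860 in untreated against 696, 676 and 698 in tamoxifen samples. Its groups were tight and apart after normalisation, at -0.31 ± 0.05 with an adjusted p of 0.269 by limma. On the deposited intensities the Inppl1 groups were also apart but less tight, at 875, 877 and 804 against 745, 663 and 681. Pik3ap1, the adaptor BCAP that connects the B cell antigen receptor to PI3K, was at 503, 565 and 590 in untreated against 723, 807 and 903 in tamoxifen samples, at 0.54 ± 0.10 (limma adjusted p = 0.34).

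Pdcd4, a translation inhibitor that S6 kinase marks for destruction, was at 613, 927 and 828 in untreated samples against 1251, 1211 and 1172 in tamoxifen samples. The untreated samples were scattered and the tamoxifen samples close together, at 0.63 ± 0.15 (limma adjusted p = 0.499). Prkaa2, a catalytic subunit of the energy sensor AMPK, measured -0.24 ± 0.06, and Pik3r6, a regulatory partner of Pik3cg, measured 0.36 ± 0.09. In the amino acid sensing list the single gene at an unadjusted p under 0.05 was Rragc, a GTPase that brings mTOR complex 1 to the lysosome (0.23 ± 0.06, limma adjusted p = 0.656). It was named after its value was seen, as were 4 genes known from FOXO biology: Insr, the insulin receptor (-0.25 ± 0.08), Irs2, its adaptor (0.08 ± 0.07), Rictor, a subunit of mTOR complex 2 (-0.18 ± 0.14), and Pik3ip1, a PI3K inhibitor (-0.07 ± 0.08).

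**Figure D4:**
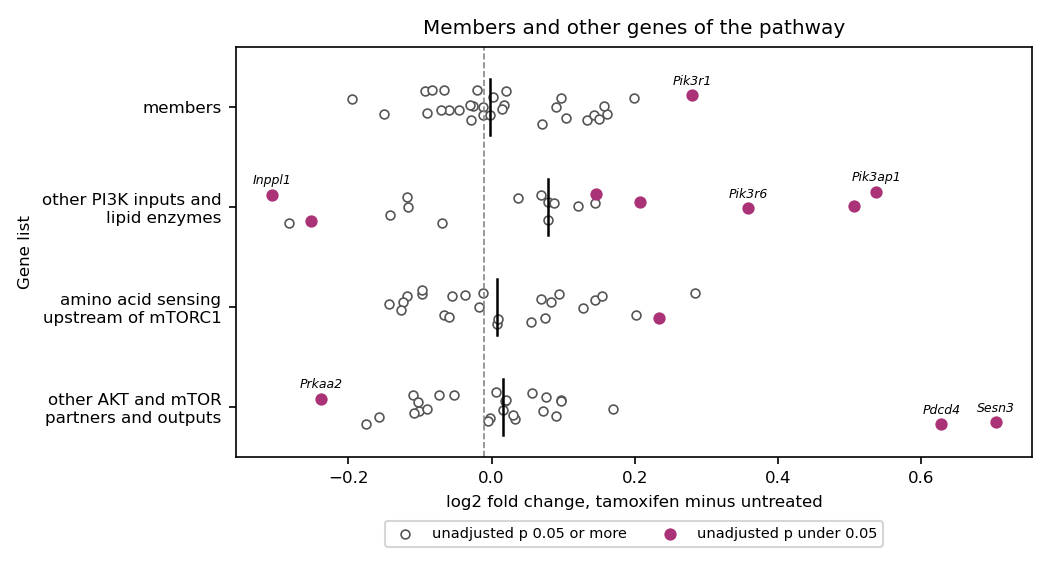
Log2 fold change of tamoxifen over untreated cells (x axis) for the 31 members and the 71 measured genes of 3 further lists (y axis), with black bars for list medians and a dashed line for the median of all genes (-0.01). Filled points have an unadjusted limma p under 0.05, 1 among the members (Pik3r1) and 7, 1 and 3 in the lists below, with Sesn3 furthest right at 0.70.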

How the data were processed

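Total RNA was labelled as biotinylated cRNA and hybridised to 1-colour arrays, per the labels' protocols. The deposited values are linear intensities, 1 per probe set and array. The authors' background correction, summary and normalisation are not given in the sources used here. Intensities were taken as log2(value + 16) and quantile normalised over the 6 arrays, and normalised intensities in the text are these values turned back to the linear scale. Groups came from the sample titles. limma 3.58.1 (lmFit, eBayes) in R 4.3.3 compared the groups across all 34760 probe sets, two-sided, with Benjamini-Hochberg adjustment and a threshold of 0.05. Intervals are 95% intervals from the same fit.

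A platform table paired 21640 probe sets with 1 gene symbol, and 0 symbols changed through Entrez IDs. Each gene was represented by its brightest probe set. Members, other pathway lists, markers and the promoter motif were chosen with earlier results of these data known. By the naming rule, all members were named. Values in every sample were given for members with an unadjusted p under 0.05 or groups without overlap, for the brightest of each role and for 7 core genes. Of other pathway genes the 6 with the lowest p were named. Of the steps, only the limma fit was tested on simulated data. These had independent noise, and changes larger than any member's in probe sets above the median. Alternatives were 3 other scalings, pseudocounts of 1 and 64, a filter on dim probe sets, an intensity trend, array weights, a replicate block, averaged probe sets and each array left out. Figures were drawn with matplotlib 3.10.9.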

Additional observations from a re-analysis of the deposited data

How the results depend on the processing

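limma called 0 members in each of the 17 alternatives, and of 521 member values 470 kept their sign. Of the 31 members 14 never changed sign, among them Pik3r1, Pdpk1, Gsk3b, Mapkap1 and Eif4ebp1. The lowest adjusted p of any member was 0.216. Groups that do not overlap can hardly change sign when 1 array is left out. The fit without both samples numbered 1 was chosen after seeing the data. With 3 arrays a group, small differences are not detectable here, and 6 members are below the median probe set.

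Members at an unadjusted p under 0.05 numbered 1, and 3 with a pseudocount of 64, 2 with a replicate block, 2 with averaged probe sets, 2 without both samples numbered 1 and 1 to 2 with 1 array left out. Their median log2 fold change ran from -0.04 to 0.06 with 1 array left out and was 0.05 without both samples numbered 1. Other pathway genes called numbered 0, and 1 with averaged probe sets. Probe sets called over the whole array numbered 20. The count was 12 with no further normalization, 11 with a pseudocount of 1, 46 after a filter to the brighter part of the probe sets, 12 with an intensity trend, 39 with array weights and 73 with averaged probe sets. It was 0 to 6 with 1 array left out, 0 with the replicate block (2525 at an unadjusted p under 0.05) and 0 without both samples numbered 1 (2488). The filtered run was fitted to and adjusted over the brighter probe sets alone, and the averaged run over 19937 genes. Their counts therefore come from other sets of tests than the 20. The part of this in their counts, and the cause of the other shifts, was not tested.

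Same-numbered samples deviated from their group means with correlations of 0.256, 0.0547 and 0.302 over all probe sets, not all over 0.1, and were not treated as pairs. Whether they share a factor was not tested. Not every sample correlated best with its own number, since untreated 2 reached 0.103 with tamoxifen 1. Under the replicate block Pik3r1 stayed at 0.28 with a limma adjusted p of 0.461, and Mlst8 (0.20) was the other member at an unadjusted p under 0.05.

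Signs turned as follows, as log2 fold changes. With a common median Rptor was 0.02, Rps6kb2 0.02, Eif4ebp2 0.00 and Gsk3a 0.02. Cyclic loess gave 0.00 for Igf1r and 0.00 for Akt2, and no further normalization 0.00 for Rptor, Rps6kb2 and Gsk3a. Array weights gave 0.01 for Igf1r, -0.01 for Tsc1 and 0.01 for Eif4ebp2, and averaged probe sets -0.02 for Irs1 and -0.01 for Akt2. Without both samples numbered 1 Igf1r was 0.05, Tsc2 0.09, Rptor 0.02, Rps6kb2 0.05, Eif4ebp2 0.08 and Gsk3a 0.07. With 1 array left out Igf1r ran from -0.06 to 0.03, Irs1 from -0.02 to 0.06, Pik3cd from -0.27 to 0.03, Pik3cg from -0.12 to 0.00, Pik3r5 from -0.05 to 0.08, Inpp4b from -0.15 to 0.22, Phlpp2 from -0.09 to 0.03, Akt1 from -0.19 to 0.06, Akt2 from -0.11 to 0.17 and Tsc1 from -0.03 to 0.05. Tsc2 ran from -0.14 to 0.11, Rptor from -0.08 to 0.09, Akt1s1 from -0.15 to 0.04, Rps6kb2 from -0.08 to 0.02, Eif4ebp2 from -0.10 to 0.04, Gsk3a from -0.08 to 0.09 and Sgk1 from -0.15 to 0.00.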

Other observations

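Further genes of PI3K catalytic and regulatory subunits, besides Pik3r6 given above, were named after their values were seen. No contrast among them was tested, and of these genes only Pik3c2a measured below 0. Among regulatory genes Pik3r3, the p55 gamma form, was at a log2 fold change of 0.51 ± 0.17 with an unadjusted limma p of 0.0244, from 85.6 ± 22.6 in untreated to 126 ± 12.6 in tamoxifen cells (normalised intensity, SD, n = 3) in a dim probe set. Pik3r4, the regulatory partner of the class III kinase, was at 0.09 ± 0.06. Among catalytic genes outside class I, Pik3c2b measured 0.21 ± 0.07 and Pik3c3, the class III kinase that works in autophagy and endosomal traffic, measured 0.15 ± 0.06, with unadjusted limma p-values of 0.0209 and 0.0448. Pik3c2a measured -0.28 ± 0.27. None of these genes passed limma after adjustment over all probe sets, where the lowest adjusted p among them was 0.807.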
